A study of Mus musculus with 11 samples.

Results

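The genes described here encode the proteins of the cytosolic ribosome. They were all gene symbols of the deposited table that begin with Rpl or Rps and a number, together with Rplp0, Rplp1, Rplp2 and Rpsa. Ribosomal S6 kinases, Rps19bp1 and 6 symbols ending in -ps were left out. This gave 84 of 13734 genes: 30 of the small subunit, 43 of the large subunit, the 3 acidic stalk proteins, 5 paralogs of core proteins (Rpl7l1, Rpl22l1, Rpl36al, Rps4l and Rps27l) and 3 further copies (Rpl32l, Rpl37rt and Rps27rt). The choice used names only, and no measured value.

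RNA of isolated mouse glomeruli, the filtering units of the kidney, was sequenced in 11 libraries of 3 groups. The db/db mice, in which both leptin receptor genes carry the db mutation and which become obese and diabetic, received 5% DMSO by gavage as vehicle (n = 4) or puerarin, an isoflavone glycoside of kudzu root, in 5% DMSO at 20 mg per kg of body weight per day (n = 3). Their db/m littermates, in which only 1 of these genes carries it, received the vehicle (n = 4). All mice were 10 weeks old at the start and were treated for 6 weeks. The labels call them male and on the BKS background, whereas the strain field names C57BL/6J. Whether each library is 1 mouse or a pool of mice is not stated, so the p-values cover only how these libraries vary, part of which may be technical.

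A cytosolic ribosome joins a small subunit, which reads the mRNA, with a large subunit, which forms the peptide bond. The acidic proteins Rplp0, Rplp1 and Rplp2 form a stalk that recruits elongation factors. Mammalian ribosomal protein genes are highly transcribed in all tissues, and most of their mRNAs begin with a C and a run of pyrimidines, the 5′ terminal oligopyrimidine (TOP) motif, through which the kinase complex mTORC1 and Larp1 control their translation. Free Rpl5 and Rpl11, bound to the 5S rRNA, hold back Mdm2 and so raise p53 when ribosome assembly fails.

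The TOP motif is the feature that these genes are best known to share, so it was read at the annotated start sites of RefSeq (GRCm38.p6, which is the mm10 assembly of the deposited table). Windows from 250 bases before to 50 bases after the start were at hand for 62 of the 84 members, and in 59 of them the start lay within 50 bases of that of the deposited row. A C followed by at least 4 pyrimidines stood exactly at the start in 12 of 62 windows (19.4%), against 2.51% of the 32544 distinct windows of all genes. The lines below show 60 bases before the start and 20 from it for 6 of these 12, with the pyrimidine run at the start in capitals. Rpl15 (chr14:18270967-18271046, minus strand) had the longest run, of 13 bases. Rps10 (chr17:27635225-27635304, minus strand) and Rps6 (chr4:86857348-86857427, minus strand) are small subunit genes. Rpl35 (chr2:39005112-39005191, minus strand) belongs to the large subunit, Rplp2 (chr7:141447591-141447670, plus strand) to the stalk, and Rps27 (chr3:90213629-90213708, minus strand) is a member whose level stood out in 1 library described below.
Rpl15: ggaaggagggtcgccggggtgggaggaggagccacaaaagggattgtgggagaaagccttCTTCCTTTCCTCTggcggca
Rpl35: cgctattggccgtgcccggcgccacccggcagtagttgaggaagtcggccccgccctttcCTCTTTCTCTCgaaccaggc
Rps10: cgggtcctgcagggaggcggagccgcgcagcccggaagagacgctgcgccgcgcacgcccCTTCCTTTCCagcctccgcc
Rps6: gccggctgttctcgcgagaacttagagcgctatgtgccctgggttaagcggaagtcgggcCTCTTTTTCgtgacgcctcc
Rps27: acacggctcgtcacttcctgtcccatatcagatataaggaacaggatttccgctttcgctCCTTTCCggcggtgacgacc
Rplp2: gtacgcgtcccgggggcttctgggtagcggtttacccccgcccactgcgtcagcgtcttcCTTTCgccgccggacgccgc

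Annotated starts can be off by a few bases. When the motif was allowed to lie anywhere from 2 bases before the start to 6 after it, 20 of 62 members (32.3%) and 8.96% of all windows held it. The ETS-family motif CCGGAAG, searched on both strands over the 300 bases, was in 24 of 62 members (38.7%) and in 8.91% of all windows. The YY1 motif AAGATGGCG was in 4 (6.45%) against 1.41%, and the TATAAA box in 8 (12.9%) against 13.6% of all windows. The next 3 windows, of the same 80-base layout, belong to the members that passed the test between the forms of library title described below. In them the capitals mark CCGGAAG or its reverse complement CTTCCGG. Rps3a1 (chr3:86142649-86142728, minus strand) and Rps7 (chr12:28635934-28636013, minus strand) held that motif and Rps4x (chrX:102189372-102189451, minus strand) did not. None of these 3 had a TOP motif at the annotated start.
Rps3a1: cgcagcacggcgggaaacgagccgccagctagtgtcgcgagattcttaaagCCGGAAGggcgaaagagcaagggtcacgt
Rps7: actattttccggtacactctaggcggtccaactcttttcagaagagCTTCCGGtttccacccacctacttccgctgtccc
Rps4x: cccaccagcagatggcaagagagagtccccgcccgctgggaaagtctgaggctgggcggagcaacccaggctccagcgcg

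Library totals ran from 35369703 to 44244460 counts, and the lowest count of any member in any library was 727. Library titles have 2 forms, and every group holds both: 5 libraries are titled with an S number and 6 with a group tag. The labels name 2 sequencing sites without saying which libraries came from which. Podocyte, glomerular endothelial and mesangial markers were present in every library. All 8 loop and distal tubule markers were also present, with a summed level of 1630 to 6094 CPM (each count over its library's total, corrected by a TMM factor, per 1000000) in the S-number libraries and 6452 to 12620 CPM in the group-tag libraries. Against the labelled sex, Xist stood at 528.5 and 819 CPM in db/db puerarin 2 and 3 and at 0.519 to 6.47 in the other 9 libraries, so comparisons with puerarin are also given without them.

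Ribosomal protein mRNAs were abundant in all libraries. Taking the highest row of each gene, the 84 members together made up 2.60% to 3.28% of the counts in such rows, and 27 of them were among the 100 highest genes per kb of transcript. Levels per kb take as denominator only the counts in the highest rows, also corrected by a TMM factor, which is a smaller total than that behind the CPM of summed rows, so they are not the CPM values given elsewhere divided by length. The mean level of a member ran from 30.0 to 1278 CPM per kb, a 42.6-fold range, with a median of 413. Rps14, a small subunit protein at the platform, was highest with 1278 ± 167 CPM per kb (SD, n = 11 libraries). Rpl41, the smallest ribosomal protein, followed with 1178 CPM per kb, and then came Rps23 (961), the decoding-site protein, Rps2 (942) and the stalk protein Rplp1 (938).

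The lowest members were paralogs or genes with long rows. Rps15a had 30.0 CPM per kb, on a row of 5134 bases, Rps20 had 63.0 on one of 3446 bases and Rpl22 had 66.4 on one of 2153 bases, so their level per kb depends on how much of the row is transcribed. The paralogs Rps4l (37.7) and Rpl7l1 (38.4) lay between them. The medians of the roles were close: 452 CPM per kb for the small subunit, 410 for the large subunit and 416 for the stalk, against 92.8 for the 5 paralogs. Within the stalk, Rplp1 (938) stood above Rplp0 (416) and Rplp2 (290 CPM per kb). The ranges of these 3 over the libraries did not overlap.

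**Figure D1:**
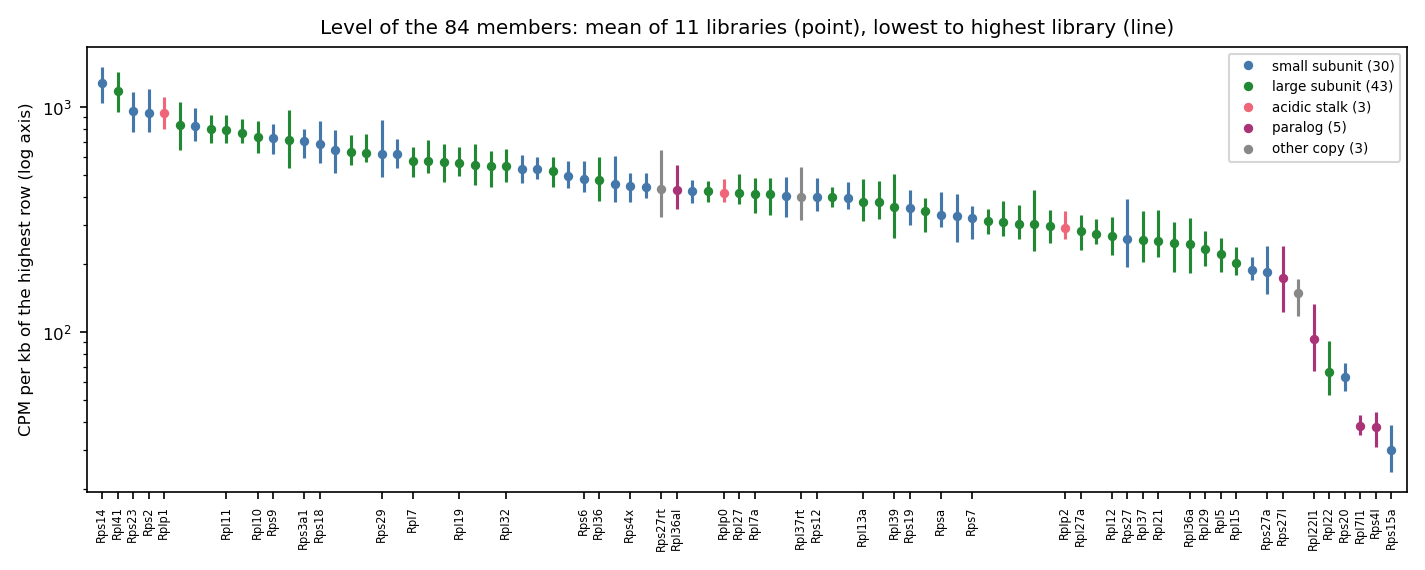
Level of each of the 84 members in CPM per kb of its highest row, over the counts in highest rows, on a log axis, ordered by the mean of the 11 libraries (point) with the lowest and highest library (line), coloured by role, with names under the members that the naming rule selects. The means run from 1278 (Rps14) to 30.0 (Rps15a), and 4 of the 5 paralogs lie among the lowest 8 members.

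The members moved together from library to library. To show this, each member's log2 CPM was set against its own mean over the 11 libraries, and the median over the 84 members was taken as the library's level. In the db/m vehicle group it was 0.130 in S184, -0.0337 in S185, -0.187 in 2 and -0.167 in 3. In the db/db vehicle group it was -0.0095 in S152, 0.229 in S153, -0.164 in 1 and 0.009 in 3. In the db/db puerarin group it was 0.056 in S144, 0.176 in 2 and -0.0482 in 3. All 84 members were above their own mean in db/db vehicle S153 and 0 of 84 were in db/m vehicle 2, so the libraries at both ends were from different groups, while each group also spanned high and low libraries. The 2 subunits followed each other: the small subunit median ran from -0.188 in db/m vehicle 2 to 0.218 in db/db vehicle S153, and the large subunit median from -0.182 to 0.246 in the same libraries.

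The group means of this level were -0.0646 ± 0.147 for db/m vehicle (SD, n = 4), 0.0159 ± 0.162 for db/db vehicle (n = 4) and 0.0614 ± 0.112 for db/db puerarin (n = 3). The differences between groups were smaller than the pooled SD within groups (0.145), and the groups overlapped. In these bulk samples, fewer cells of a type and less RNA per cell cannot be told apart. The members are short, with a median row of 693 bases and 64 of 84 under 1 kb. The 553 other genes under 1 kb with a mean of at least 10 CPM had a median level of 0.171 in db/db vehicle S153, 0.193 in db/db puerarin 2 and 0.122 in db/m vehicle S184, the 3 libraries where the members were highest. They were also low in db/db vehicle 1 (-0.135) and db/m vehicle 2 (-0.107). Their lowest level was in db/m vehicle S185 (-0.1915), where the members had -0.0337. In db/db vehicle 3 the members had 0.009 and these short genes 0.112. They went the other way in db/db puerarin S144 (-0.102, where the members had 0.056), in db/m vehicle 3 (0.0079 against -0.167) and in db/db puerarin 3 (0.0202 against -0.0482). Whether transcript length sets part of the members' level was not tested beyond the covariate given with some of the comparisons.

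**Figure D2:**
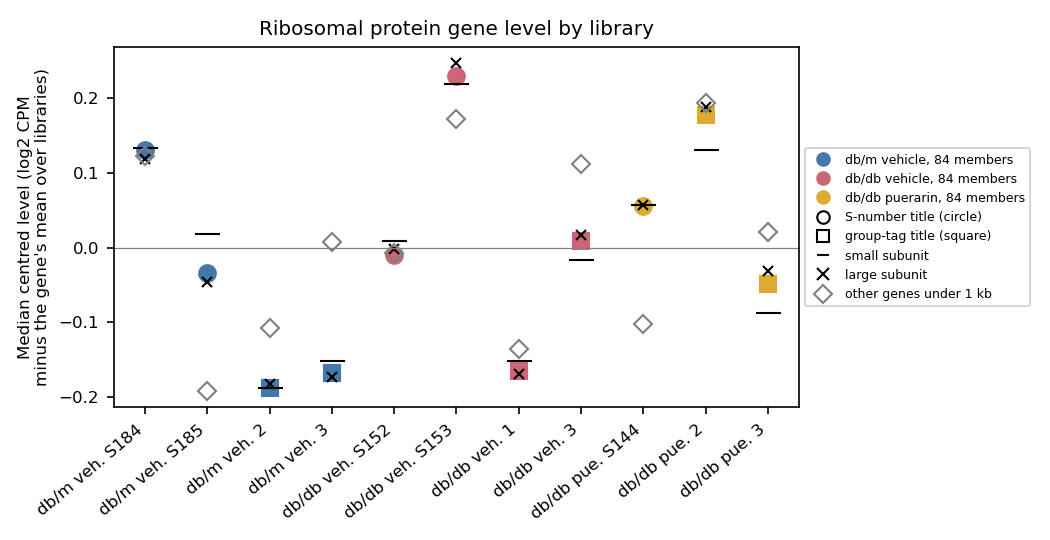
Median centred level of the 84 members in each library (filled symbols: colour for group, circle for S-number and square for group-tag titles), in log2 CPM minus each gene's mean over libraries, with the small and large subunit medians and the median of 553 other genes under 1 kb. Members are highest in db/db vehicle S153 (0.229) and lowest in db/m vehicle 2 (-0.187), and all groups overlap.

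Taking off the library's level lowered the median SD of the members. Part of this is built in, because that level is their own median, and other genes were not treated in this way. The median SD of log2 CPM over the 11 libraries was 0.164 for the members, and 37.9% of the 9941 genes with a mean of at least 10 CPM had a lower SD. After subtraction of the library level the median SD was 0.106. The steadiest were Rpl11 (0.0313), the 5S-bound protein that controls Mdm2, Rpl15 (0.0466), Rps19 (0.047), a protein mutated in Diamond-Blackfan anaemia, Rps12 (0.054) and Rpl7 (0.0587). Rpl11 had 316, 284, 259 and 265 CPM in db/m vehicle S184, S185, 2 and 3, 298, 336, 258 and 296 in db/db vehicle S152, S153, 1 and 3, and 292, 337 and 292 in db/db puerarin S144, 2 and 3. That Rpl11 was high and low with the members as a whole is what its small SD after subtraction already states.

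The members that departed most from the common level were the paralogs Rpl22l1 (SD 0.228) and Rps27l (0.207), then Rps27rt (0.180), Rps27 (0.179) and Rpl39 (0.175). In db/db puerarin 2, Rps27, a zinc-binding small subunit protein, was 0.419 above the library's level, the largest departure of any member there. In db/db puerarin 3 that place was held by Rpl29 (0.320), and in db/m vehicle 3 by Rps4l (0.376). Rpl22l1, the paralog of the RNA-binding protein Rpl22, was the highest member in db/db puerarin S144 (0.269) and the lowest in db/db puerarin 3 (-0.308), so libraries of the same group stood at opposite ends. Members encoded on the X chromosome (Rpl10, Rpl36a, Rpl39 and Rps4x) were relevant for the 2 libraries with Xist. Rps4x had 296 CPM in db/db puerarin S144 and 265 and 233 in 2 and 3, and Rpl36a had 87.0 in S144 and 95.2 and 77.2 in 2 and 3. In both genes the 2 libraries lay inside the range of the other libraries (226 to 311 CPM for Rps4x and 54.9 to 98.4 for Rpl36a). In the other 2 genes 1 library each lay outside it, in opposite directions. Rpl10 had 418 CPM in S144, 379 in 2 and 309 in 3, the last below all other libraries, of which the lowest had 316.5. Rpl39 had 109 in S144, 135 in 2 and 89.9 in 3, and library 2 was above all others, of which the highest had 116.

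Ribosomal protein genes often serve as reference genes in PCR. Among 21 common reference genes, 7 of them members, Rplp0 (SD of log2 CPM 0.121) and Rpl19 (0.134) had ranks 3 and 4 in steadiness, behind Ywhaz (0.0655) and Tbp (0.0967). Rplp0 had 404, 343, 322 and 349 CPM in db/m vehicle S184, S185, 2 and 3, 344, 407, 360 and 373 in db/db vehicle S152, S153, 1 and 3, and 327, 332 and 321 in db/db puerarin S144, 2 and 3. The 3 puerarin libraries were all below the 4 db/db vehicle libraries, although the difference did not pass the test given below. Rpl27 (0.148), Rpl13a (0.184), Rps18 (0.187), Rpl32 (0.189) and Rps29 (0.255) were less steady, and Gapdh (0.373) and Tfrc (0.953) least so. Rps29 ranged from 118 CPM in db/db vehicle S152 to 210 CPM in db/db puerarin 2.

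Glomeruli of db/db mice on vehicle were compared with those of db/m mice on vehicle to ask what the db/db genotype changes. No member passed the test of edgeR (adjusted p under 0.05 by Benjamini-Hochberg over all genes), where 0.0437% of all genes did. DESeq2 called 290 genes, of which 0 were members. The log2 fold change was positive in 68 of 84 members (81%), against 53.5% of all genes, and its median was 0.0852 against 0.0151. The large subunit had a median of 0.0950, the small subunit 0.0637 and the stalk 0.0669. At an unadjusted p under 0.05 there were 5 members with a positive change, which is 5.95% of them where 5.5% of all genes met the same rule. The 553 other genes under 1 kb had a median of 0.0942 with 74.5% positive, close to the values of the members. With the level of those genes as a covariate, the members' median was 0.0163 and 51 of 84 were positive.

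Markers of other cells also differed in this comparison, with 0 past the test. All 11 measured myeloid markers had positive log2 fold changes (median 1.32), with summed levels of 112.0 to 282 CPM on db/m vehicle and 182 to 1246 CPM on db/db vehicle, and their level was highest in db/db vehicle 1. Of the tubule markers, 8 of 8 proximal (median 0.263), 6 of 8 loop and distal (0.304) and 7 of 8 collecting duct markers (0.539) were positive. By contrast, 1 of 10 podocyte markers (median -0.260) and 2 of 9 glomerular endothelial markers (-0.222) were. With the tubule level as a covariate the members' median was 0.0312 and 54 were positive, and without db/db vehicle 1 it was 0.123 and 75 were positive. The part of myeloid, podocyte and endothelial RNA in the members' values was not tested.

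The 2 largest changes of this comparison were in the large subunit proteins Rpl29 and Rpl7a. Rpl29, also known as a heparin-binding protein, had 489, 434, 423 and 465 CPM in db/m vehicle S184, S185, 2 and 3 and 535, 607, 497 and 538 CPM in db/db vehicle S152, S153, 1 and 3. It was the only member whose groups did not overlap, where 2.48% of all genes were higher without overlap, and its log2 fold change was 0.27 (SE 0.11, edgeR adjusted p = 0.418). Rpl7a, which binds the large subunit rRNA, had 227, 189, 181 and 195 CPM on db/m vehicle and 221, 262, 214 and 250 on db/db vehicle in the same order of libraries, so the groups overlapped (log2 fold change 0.26, SE 0.10, edgeR adjusted p = 0.421). Rpl12, at the base of the stalk, had the smallest p of the members (log2 fold change 0.21, SE 0.081, edgeR adjusted p = 0.411), with means of 97.4 ± 11.6 and 112 ± 12.3 CPM. The most negative was the paralog Rps4l (-0.16, SE 0.12), followed by Rpl41 (-0.12, SE 0.15), and neither passed. The stalk protein Rplp2 had -0.066 (SE 0.093). Without db/db vehicle S153 the members' median was 0.0182 with 48 positive, and without db/m vehicle 2 and 3 it was 0.0482 with 58 positive.

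Puerarin was compared with vehicle in db/db mice to ask what the compound changes in diabetic glomeruli. No gene of the table passed the test of edgeR (0%), members included. DESeq2 called 15 genes, of which 0 were members. The members' median log2 fold change was 0.0503, with 62 of 84 positive, against -0.0198 for all genes. It was 0.0438 in the small and 0.0508 in the large subunit and -0.0311 in the stalk. The 553 other genes under 1 kb had a median of -0.0157, with 43.4% positive. No value with their level as a covariate is given for this comparison. At an unadjusted p under 0.05 there were 4 members with a positive change, where 2.02% of all genes met that rule. They were Rpl37, Rpl37rt, Rps27 and Rps27rt, which form 2 pairs of overlapping or near-identical genes.

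Rpl37, a zinc-binding large subunit protein, had 123, 147, 112 and 128 CPM in db/db vehicle S152, S153, 1 and 3 and 150, 185.4 and 148 CPM in db/db puerarin S144, 2 and 3. The puerarin libraries were all higher, and the log2 fold change was 0.37 (SE 0.13, edgeR adjusted p = 0.967). Only Rpl37 and Rpl37rt were higher without overlap among the members, where 1.51% of all genes were. In db/m vehicle, however, Rpl37 had 156, 134, 120 and 117 CPM, so the db/m group reached the puerarin group's range. Rps27 had 174, 204, 140 and 167 CPM on db/db vehicle and 207, 276 and 172 on puerarin. The groups overlapped, with db/db puerarin 2 highest of all libraries (log2 fold change 0.41, SE 0.17, edgeR adjusted p = 0.967), and without that library the fold change was 0.147. In the other direction, Rplp0 was lower without overlap, where 1.72% of all genes were (log2 fold change -0.17, SE 0.093, edgeR adjusted p = 0.967). Rps9 (-0.14, SE 0.099) and Rps2 (-0.19, SE 0.14) came next by p and did not pass.

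The direction of the members' median in this comparison was not stable. It was -0.0581, with 27 of 84 positive, without db/db puerarin 2 and 3, -0.0184 (33 positive) without db/db puerarin 2 alone, and 0.152 (73 positive) without db/db puerarin S144. Without db/db vehicle S153 it was 0.111, without db/db vehicle 3 it was 0.0884, without db/db puerarin 3 it was 0.0997, without db/db vehicle S152 it was 0.0278, and without db/db vehicle 1 it was 0.0216. Without title form in the fit it was 0.0219 (51 positive). With the title form split into blocks by the replicate number of the group-tag libraries it was -0.00698 (39 positive). Markers of other cells differed here too, with 0 past the test. The 11 myeloid markers all had negative log2 fold changes (median -1.32), with summed levels of 182 to 1246 CPM on db/db vehicle, where library 1 was highest, and 171.5 to 311 on puerarin. The 8 loop and distal tubule markers were also all negative (median -0.711) and had summed levels of 4594 to 12620 CPM on db/db vehicle and 1630 to 8088 on puerarin. All 8 collecting duct markers (median -0.403) and 7 of 8 proximal tubule markers (-0.253) were negative, while 8 of 10 podocyte (0.117) and 7 of 9 glomerular endothelial markers (0.0982) were positive. The part of myeloid and glomerular cell RNA in the members' values was not tested. With the tubule level as a covariate the members' median was 0.126 and 73 were positive.

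Puerarin-treated db/db mice were also compared with db/m mice on vehicle. This comparison shares its libraries with the others, so its values are not independent of them. No member passed the test of edgeR, where 0.182% of all genes did. DESeq2 called 297 genes, of which 0 were members. The median log2 fold change was the largest of the 3 group comparisons, 0.154 against -0.00911 for all genes, with 73 of 84 members positive. The large subunit had a median of 0.160, the small subunit 0.0976 and the stalk -0.0973. There were 17 members with a positive change at an unadjusted p under 0.05, which is 20.2% of them where 5.37% of all genes met that rule. The other genes under 1 kb had a median of 0.0626, with 64.9% positive. With their level as a covariate, again chosen after seeing the data, the members' median was 0.0829, with 66 positive. Of the cell markers, 8 of 11 myeloid (median 0.193), 1 of 8 loop and distal tubule (-0.491), 3 of 10 podocyte (-0.156) and 3 of 9 glomerular endothelial markers (-0.145) were positive, with 0 past the test.

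Rpl27a, Rpl21 and Rpl36a had the smallest p-values, all 3 being large subunit proteins. Rpl21 had 282, 256, 258 and 251 CPM in db/m vehicle S184, S185, 2 and 3 and 320, 398 and 300 CPM in db/db puerarin S144, 2 and 3 (log2 fold change 0.39, SE 0.12, edgeR adjusted p = 0.287). Rpl27a had 195, 192, 170 and 159 CPM in db/m vehicle and 209, 228 and 208 on puerarin (log2 fold change 0.30, SE 0.090, edgeR adjusted p = 0.273). These were the 2 members higher without overlap, where 3.73% of all genes were. Rpl36a had 83.2, 67.3, 58.5 and 54.9 CPM in db/m vehicle and 87.0, 95.2 and 77.2 on puerarin, with overlap (log2 fold change 0.46, SE 0.15, edgeR adjusted p = 0.312). Among negative changes the smallest p-values were those of the stalk proteins Rplp0 (-0.10, SE 0.093) and Rplp2 (-0.097, SE 0.10) and of Rpl41 (-0.14, SE 0.16), none of which passed. Without db/db puerarin 2 and 3 the members' median was 0.0341 with 54 positive, and without db/db puerarin 2 alone it was 0.0505 with 59 positive.

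**Figure D3:**
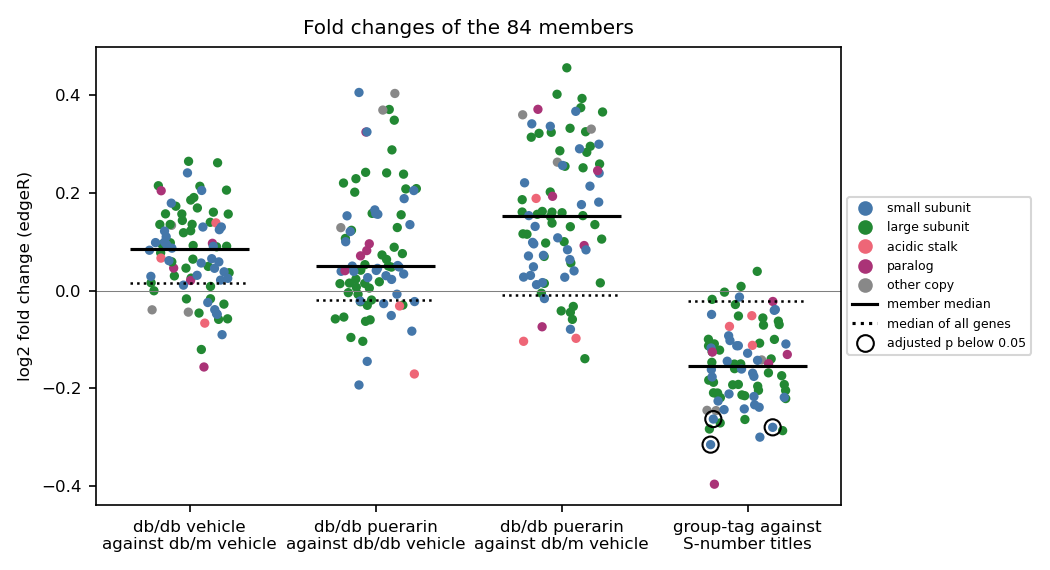
Log2 fold change (edgeR) of the 84 members in the 4 comparisons, 1 point per member coloured by role, with the member median (solid line) and the median of all genes (dotted line). Circles mark the 3 members with an adjusted p under 0.05, all between group-tag and S-number titles, where the member median is -0.155.

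The members differed more evenly between the forms of library title than between any groups. With group as a term in the fit, 82 of 84 members had a negative log2 fold change of group-tag against S-number libraries, with a median of -0.155 against -0.0210 for all genes and 0.00961 for the other genes under 1 kb. The small subunit had a median of -0.165, the large subunit -0.159 and the stalk -0.0729. The 3 members Rps3a1, Rps7 and Rps4x, all of the small subunit, passed the edgeR test, all lower, where 1.32% of all genes did. DESeq2 called 11 members lower, where it called 3.83% of all genes lower. At an unadjusted p under 0.05 the edgeR test gave 27 members lower, or 32.1%, where 11.2% of all genes met that rule. Rpl36 (0.040) and Rpl29 (0.0090) were the 2 members with positive values, with adjusted p-values of 0.854 and 0.962.

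Rps3a1, which lies at the mRNA exit of the small subunit (chr3:86137940-86142668), had 458, 456, 459, 471 and 471 CPM in the S-number libraries S184, S185, S152, S153 and S144, and 381, 348, 376, 370, 420 and 350 CPM in the group-tag libraries db/m vehicle 2 and 3, db/db vehicle 1 and 3 and db/db puerarin 2 and 3. The forms did not overlap, and the log2 fold change was -0.31 (SE 0.065, edgeR adjusted p = 0.0234). Rps4x, the X-linked gene of the small subunit protein S4 (chrX:102184941-102189391), had 290, 311, 300, 295 and 296 CPM in the S-number libraries and 255, 226, 268, 245, 265 and 233 in the group-tag libraries in the same order. It too had no overlap, and the log2 fold change was -0.26 (SE 0.066, edgeR adjusted p = 0.0424). Rps7, a small subunit protein that also binds Mdm2 (chr12:28630847-28635953), had 206, 204, 217, 214 and 213 CPM against 163, 152.6, 174, 188, 206 and 173. Here db/db puerarin 2 reached the S-number range (log2 fold change -0.28, SE 0.069, edgeR adjusted p = 0.0404).

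In all, 5 members were lower in group-tag libraries without overlap, where 1.58% of all genes were. The calls were close to the threshold: 0 members passed without db/m vehicle S185 or 3, without db/db vehicle S152, S153 or 3, or without db/db puerarin S144, 1 passed without db/m vehicle 2 or without db/db puerarin 3, and 12 passed without db/db puerarin 2. The log2 fold changes of Rps3a1, Rps7 and Rps4x stayed between -0.344 and -0.226 in the fits that left out 1 library. Markers of other cells differed between the forms in both directions. As higher in group-tag libraries, 7 of 8 loop and distal tubule markers and 4 of 8 collecting duct markers passed the test, where 5.65% of all genes did. As lower, 3 of 5 erythroid markers passed (median -1.06). Of the 6 mesangial markers 1 was positive (median -0.174). That was Acta2, which passed as higher (1.74, SE 0.091, edgeR adjusted p = 3.71e-05), while Serpine2 passed as lower (-0.73, SE 0.15, edgeR adjusted p = 0.0247). The proximal tubule markers had 0 of 8 positive (median -0.361), the glomerular endothelial markers 0 of 9 (-0.312) and the podocyte markers 1 of 10 (-0.184), with 0 past the test, and 11 of 11 myeloid markers were positive (0.581), also with 0 past it. With the tubule level as a covariate the members' median was -0.258 and 84 of 84 were negative. The part of the sequencing site was not tested, because the labels do not assign it. GC content also moved with the values: over the 82 members with a GC content, Spearman's rho between it and the fold change was 0.579, and it was 0.290 over 9810 genes. These are correlations across genes, which are not independent replicates.

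**Figure D4:**
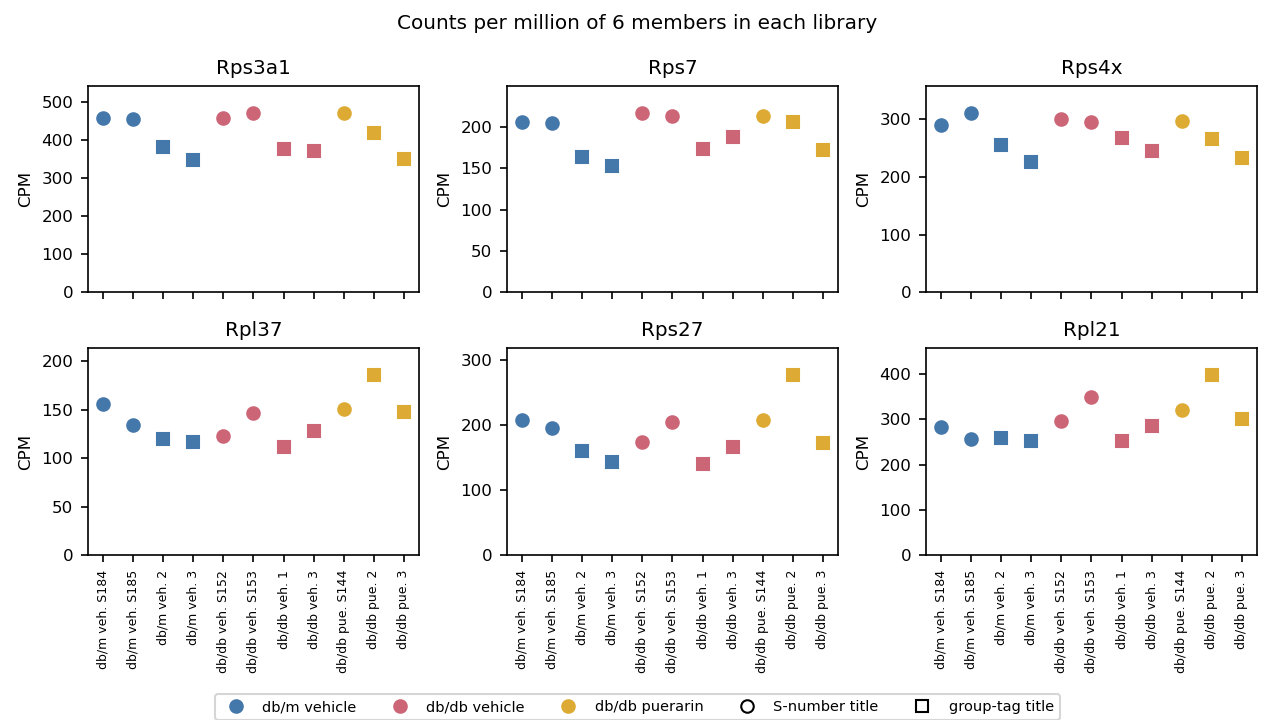
CPM of 6 members in each of the 11 libraries (colour for group, circle for S-number and square for group-tag titles). Rps3a1 and Rps4x are lower in all 6 group-tag libraries than in all 5 S-number libraries, Rpl37 is higher in all 3 puerarin than in all 4 db/db vehicle libraries, and Rps27 is highest in db/db puerarin 2 (276 CPM).

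Within each form of title the group differences were as follows. For the genotype, 58 of 84 members were positive in the S-number libraries (median 0.0691) and 71 in the group-tag libraries (median 0.0913). For puerarin against vehicle in db/db, 24 of 84 were positive in the S-number libraries (median -0.0573), where puerarin had 1 library, and 76 in the group-tag libraries (median 0.146). For db/db on puerarin against db/m, the medians were 0.00995 (44 positive) and 0.230 (78 positive). The group-tag puerarin libraries are the 2 with Xist. For the genotype, the edgeR test of the difference between forms called 0 members, with a smallest adjusted p of 0.9998, and 3 of 13734 genes. At an unadjusted p under 0.05 there were 0 members, where 3.33% of all genes met that rule. The contrasts with puerarin rest on 1 S-number library of that group, so no test of their difference between forms is given.

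The mRNA of a paralog can be set against that of its core gene as a ratio within each library, which does not depend on library size. Protein was not measured. Rps27l, a p53 target that can replace Rps27, stood at 0.546, 0.388, 0.480 and 0.515 of Rps27 in db/m vehicle S184, S185, 2 and 3, at 0.558, 0.548, 0.473 and 0.693 in db/db vehicle S152, S153, 1 and 3, and at 0.412, 0.453 and 0.494 in db/db puerarin S144, 2 and 3. On the highest row of each gene, the ratio of Rps27l to Rps27 ran from 0.474 to 0.826 over the libraries. In summed rows, its difference between puerarin and vehicle in db/db had the largest size of the 15 tested (log2 difference -0.317, exact two-sided permutation p = 0.114, adjusted p = 0.571 over 15 tests). The groups overlapped. Rpl7l1, a paralog of Rpl7 with a role in ribosome assembly, had ratios of 0.194, 0.196, 0.195 and 0.210 in db/m vehicle, 0.174, 0.183, 0.199 and 0.178 in db/db vehicle and 0.180, 0.166 and 0.190 on puerarin. All 3 puerarin libraries were below all 4 db/m libraries, by 0.156 on the log2 scale, with an exact permutation p of 0.0571, the smallest that 3 against 4 libraries can give, and an adjusted p of 0.571.

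Rpl22l1 stood at 0.122 to 0.190 of the CPM of Rpl22 over the 11 libraries and Rps4l at 0.0662 to 0.112 of that of Rps4x. These are ratios of summed rows, with 5 rows for Rpl22 and 2 for Rpl22l1. On the highest row of each, Rpl22l1 had 0.230 to 0.362 of the CPM of Rpl22. Per kb of row, however, Rpl22l1 (92.8 CPM per kb) was above Rpl22 (66.4), whose row is long. Rpl36al had 1.48 to 2.32 times the CPM of the X-linked Rpl36a, and 428 against 247 CPM per kb. The smallest exact permutation p is 0.0571 with 3 against 4 libraries and 0.0286 with 4 against 4, and over the 15 tests the smallest adjusted p that could be reached was 0.0571. No ratio could therefore pass at 0.05, and the tests do not show that the ratios were alike between groups. Ratios of near-identical genes are uncertain where reads could be assigned to either.

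**Figure D5:**
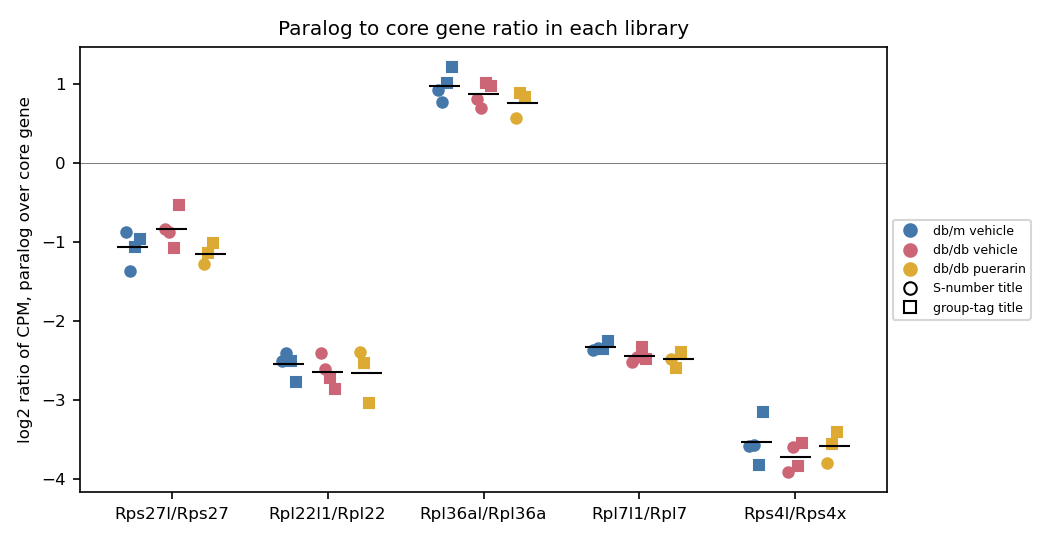
Log2 ratio of the CPM of a paralog to its core gene in each library, by group (colour) and form of title (circle or square), with the group mean (line). Rpl36al exceeds Rpl36a in all libraries, and the other 4 paralogs have less CPM than their core genes.

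Of the 3 further copies, Rps27rt lies on the coordinates of Rps27 itself, whose 2 rows were summed (chr3:90212667-90213647, minus strand) and had 0.496 to 0.503 of its CPM in every library. Rpl37rt (chr5:115102922-115107962, minus strand) had 2.37 to 2.50 times the CPM of Rpl37 (chr15:5116613-5119140, plus strand). Here 2 rows were summed for Rpl37rt, whereas Rpl37 has 1 row. On the highest row of each, Rpl37rt had 399 and Rpl37 256 CPM per kb. The ratios of summed rows hardly varied (SD of log2 0.00497 for Rps27rt and 0.0204 for Rpl37rt). Reads of these 2 copies cannot be told apart from those of their near-identical partners here. Rpl32l had 0.293 to 0.386 of the CPM of Rpl32 and varied more (SD 0.122).

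Genes around the ribosome gave the setting of these values. No gene of 6 lists (ribosome parts outside the naming rule, TOP-type translation factors, ribosome biogenesis factors, RNA polymerase I, mTORC1 and TOP mRNA control, and 5S particle with p53) passed the edgeR test in any of the 3 group comparisons. In db/db against db/m vehicle, 11 of 44 biogenesis factors had a positive change (median -0.0903), while 68 of 84 members did. The lowest of them by p was Gar1, of the pseudouridylation complex (-0.30, SE 0.099, edgeR adjusted p = 0.330). Of 16 TOP-type translation factors 12 were positive (median 0.0466), led by Tpt1 (0.19, SE 0.089, edgeR adjusted p = 0.505). The ribosome scaffold Rack1 had 0.050 there (SE 0.082, edgeR adjusted p = 0.876) and -0.065 between puerarin and vehicle (SE 0.090, edgeR adjusted p = 0.971).

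Between the forms of title, some genes of these lists passed the edgeR test. Over all genes, 5.65% passed it as higher and 1.32% as lower. By list, those lower were 1 of 16 TOP-type factors and 1 of 44 biogenesis factors. Those higher were 3 of 18 genes of mTORC1 and TOP mRNA control and 2 of 6 of the 5S particle with p53. Ribosome parts outside the naming rule and RNA polymerase I had 0. Nap1l1, a histone chaperone with a TOP mRNA, was lower in group-tag libraries (-0.42, SE 0.092, adjusted p = 0.0289), and 14 of the 16 TOP-type genes were negative (median -0.168), as were 82 of the 84 members. Larp1, which binds TOP mRNAs, was higher (0.25, SE 0.064, adjusted p = 0.0482), as were Tsc1 (0.43, SE 0.090, adjusted p = 0.0247), an inhibitor of mTORC1, and the S6 kinase gene Rps6kb2 (0.48, SE 0.11, adjusted p = 0.0289). The p53 target Cdkn1a (0.86, SE 0.10, adjusted p = 0.00258) and the p53 inhibitor Mdm4 (0.63, SE 0.098, adjusted p = 0.00891) were higher too. Of the biogenesis factors, Imp3 was lower (-0.26, SE 0.066, adjusted p = 0.0469). The 5S-bound proteins themselves did not pass: Rpl5 had -0.22 (SE 0.079, adjusted p = 0.118).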

How the data were processed

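The deposited counts were whole reads per RefSeq transcript (22320 rows), and the authors' deposited log2 values equalled the log2 of these counts plus a constant per library, as tested on the file. BWA, limma and mm10 are named without versions, per the submitters' processing notes. How reads were counted, and with what strand setting, was not given in the sources used here. In all, the table has 15 count columns, and the 4 that no sample label matched were left out. The 13 blank cells were set to 0, and 50 symbols turned into dates were restored by transcript identifier. Rows were summed per symbol (13734 genes), so reads shared by the rows of 15 members are counted more than once. Levels per kb and shares use the highest row.

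The test was edgeR 4.0.16 in R 4.3.3 (glmQLFit, TMM factors) on all 11 libraries with group and form of title as terms, 7 residual degrees of freedom, a minimum of 1 count in 3 libraries (which removed no gene) and Benjamini-Hochberg adjustment, at an adjusted p of 0.05. The standard error comes from the F statistic. The fit was tested on simulated data. Alternatives included DESeq2 1.42.0, other factors, covariates and omitted libraries. Ratios were tested by exact permutation (SciPy 1.17.1). GC content came from GENCODE M21 transcripts matched by identifier, and promoters from RefSeq. The genes named were the 5 highest and lowest per kb, the 5 most and least variable, the 3 smallest p-values per direction and comparison, stalk and paralog genes, and set lists of members. Single values of a few genes are not reported here. The members and lists were chosen with earlier results of these data known.

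The labels do not say that a number in the titles marks a shared animal or day. Over 9941 genes, the deviations from group means of the 4 same-numbered pairs correlated at 0.23 to 0.635, and other pairs at -0.254 to 0.555. After removing the form of title, same-numbered pairs ranged from -0.297 to 0.347, so the numbers were not taken to pair the libraries.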

Additional observations from a re-analysis of the deposited data

Results flagged for a closer look

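Groups of 4 libraries were searched for 1 library far from the other 3, by Dixon's gap, in the members' median level, the 5 paralog ratios and the CPM of the 47 named members. Of 106 groups searched, 2 were marked, and chance marks about 1 in 20. Both were db/m vehicle S184. Rps27l had 113.7 CPM in db/m vehicle S184 and 73.93 to 76.41 CPM in the other 3 db/m vehicle libraries, a gap of 0.923 of the group's range. Rpl27 had 204.9 CPM in db/m vehicle S184 and 167.5 to 172.9 CPM in the other 3, a gap of 0.843 of the range. The members' median level in that library was 0.130, the highest of its group.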

How the results depend on the processing

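Of the member counts and medians, those of the 3 group comparisons kept 0 members past the edgeR test under the alternatives run, except that the tubule level as a covariate gave 1 for db/db on puerarin against db/m. Leaving out 1 library at a time, the members' median ranged from 0.0182 to 0.123 for db/db against db/m, from -0.0184 to 0.152 for puerarin against vehicle and from 0.0505 to 0.229 for db/db on puerarin against db/m. With the replicate number as a block these medians were 0.132, -0.00698 and 0.141, with 0 members called, db/db vehicle 1 being fitted by a term of its own. Between title forms the count of 3 became 11 with DESeq2, 1 with library totals alone, 1 with the highest row of each symbol, 9 with the tubule level as a covariate, 0 without db/db puerarin 2 and 3, and, chosen after seeing the data, 0 without db/m vehicle 2 and 3 and 18 with the short-transcript level as a covariate. Leaving out 1 library gave 0 to 12 members and medians of -0.217 to -0.111. In the same comparison Rpl36 became negative with the tubule covariate (-0.176) and without db/db puerarin 2 and 3 (-0.0642), and ranged from -0.074 (without S144) to 0.123 when 1 library was left out. Rpl29 became negative in the same 2 settings (-0.145 and -0.0899) and ranged from -0.0995 to 0.0587 when 1 library was left out, being negative when the library left out was db/m vehicle S185 (-0.00646) or db/db puerarin S144, 2 (-0.000662) or 3 (-0.0126). Rplp2, for db/db on puerarin against db/m, ranged from -0.18 to 0.0151, the latter without db/db puerarin S144. Why these values moved was not tested. The tests of paralog ratios could not reach an adjusted p of 0.05 in any setting run, so they say nothing about stability. The title-form comparison without its own term cannot be made. Scaling moved the median of all genes by at most 0.0311 (log2).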
